A study of Mus musculus with 2 samples.

Results

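The genes described here are 9 members of the complement system, a cascade of plasma and locally made proteins that tags and lyses targets and calls in leukocytes. They are C1qa, C1qb and C1qc, which encode the chains of the recognition molecule C1q. They are also C4b of the classical pathway, C3, the alternative pathway genes Cfb and Cfp, and the anaphylatoxin receptor genes C3ar1 and C5ar1. Each was found by its gene symbol, on 1 row each, among 31253 features of the deposited count tables, and its unique molecular identifiers (UMIs, each standing for 1 captured transcript) were summed over the cells of each type. The data are BD Rhapsody single-cell RNA-seq libraries of infarcted mouse brain. The tissue was taken 3 days after tMCAO, a stroke model in which the middle cerebral artery is blocked for a time and then reopened. The tissue was minced and digested with collagenase at 37 °C, and the cells were filtered. The 2 groups are brains with a conditional knockout of Hilpda, a lipid droplet protein that inhibits triglyceride breakdown (labelled cKO), and control brains labelled flox in the sample title and WT in the series' design. The Cre driver, the cells it acts in, the deleted exons, the strain, sex and age of the mice and the number of brains per library are unknown here, because no label states them.

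Each group had 1 library, so no difference between them has a replicate check, and library preparation and group cannot be told apart. All intervals below are 95% intervals for counting error only: exact Poisson for levels, exact conditional for ratios and exact Clopper-Pearson for shares. The cKO-labelled library held 7382 barcodes and 70665440 UMIs, and the flox-labelled library held 8593 barcodes and 67864602 UMIs. After the filters, 6984 cells with a median of 8741 UMIs were kept in the cKO-labelled library and 8065 cells with a median of 6997 UMIs in the flox-labelled library, and 56 barcodes occurred in both. Hilpda itself went only partly with the labels. In all cells it stood at 214 CPM (UMIs scaled to a total of 1000000) in the cKO-labelled library and 273 CPM in the flox-labelled library, a log2 ratio of -0.35 (-0.38 to -0.32). In microglia-like cells it was higher in the cKO-labelled library, with 220.5 CPM (4719 UMIs) against 108 CPM (2544 UMIs), and in monocyte or macrophage-like cells it was lower, with 255 CPM against 474 CPM. Because the deleted part of the gene is not given, a UMI may come from outside it, and this check may then say nothing about the deletion. The libraries are therefore called by their labels throughout.

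Cells were placed in types by fixed marker genes, and a type is called "like" for that reason. The 10 types compared had at least 50 cells in each library. They were microglia-like (1596 cells in the cKO-labelled library and 2393 in the flox-labelled library), monocyte or macrophage-like (1844 and 2239), border-associated macrophage-like (299 and 249), neutrophil-like (251 and 175), dendritic cell-like (83 and 77), endothelial cell-like (528 and 569), mural cell-like (89 and 91), oligodendrocyte-like (292 and 305), choroid plexus epithelial cell-like (150 and 68) and neuroblast-like cells (72 and 54). In each of these 10 types every fixed marker of that type was higher than in the remaining cells of the same library. Neutrophil-like cells were shallow, with a median of 1294 UMIs in the cKO-labelled library and 1069 UMIs in the flox-labelled library. The gate was least sharp for the macrophage types. Of the cells that scored highest as monocyte or macrophage, gated or not, 22.0% lay within 0.02 of the margin required, as did 22.1% of those that scored highest as border-associated macrophage. Of the border-associated macrophage-like cells, 64.6% lay in the matching cluster of an unsupervised clustering. In these cells the 8 border-associated macrophage markers summed to 6707 CPM in the cKO-labelled library and 8032 CPM in the flox-labelled library. The 12 monocyte or macrophage markers summed to 9672 CPM and 14188 CPM there, and their part in the member values was not tested.

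As background, C1q binds antibody complexes, dying cells and other surfaces, and activates proteases that cleave C4 and C2. The resulting convertase cleaves C3, the hub of the cascade, whose fragments coat targets for phagocytosis. Factor B (Cfb) forms the convertase of the alternative pathway, and properdin (Cfp) stabilises it. The small fragments C3a and C5a act on the receptors C3ar1 and C5ar1 of myeloid cells. In brain, microglia are the main known source of C1q, and C1q with C3 is known for tagging synapses and debris for removal by phagocytes.

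The C1q genes lie next to each other on the minus strand of chromosome 4 (mm10, GENCODE coordinates): C1qb at 136880129 to 136886187, C1qc at 136889804 to 136893065 and C1qa at 136895917 to 136898803. C3 (57203970 to 57228136), C4b (34728380 to 34743882) and Cfb (34856374 to 34862518) lie on chromosome 17, Cfp on chromosome X (20925454 to 20931555), C3ar1 on chromosome 6 (122847138 to 122856161) and C5ar1 on chromosome 7 (16246743 to 16259540), and these too are on the minus strand. C4b has a near-identical neighbouring copy, C4a, which is not analysed here, so the C4b values are uncertain to the extent that reads could be split between them. Cfb starts next to the end of C2, which lies on the same strand. The promoter windows of C1qb and C1qc are shown because these adjacent genes had the most alike pattern of any pair found below. Each holds 250 bases before and 50 after the annotated start (RefSeq, GRCm38.p6), read 5′ to 3′ on the gene's strand, at chr4:136886151-136886450 (minus) and chr4:136892865-136893164 (minus). Capitals mark the core GAGGAA of the binding motif of PU.1, a transcription factor of myeloid cells, on either strand (read as TTCCTC on the printed strand when it lies on the other).
C1qb promoter: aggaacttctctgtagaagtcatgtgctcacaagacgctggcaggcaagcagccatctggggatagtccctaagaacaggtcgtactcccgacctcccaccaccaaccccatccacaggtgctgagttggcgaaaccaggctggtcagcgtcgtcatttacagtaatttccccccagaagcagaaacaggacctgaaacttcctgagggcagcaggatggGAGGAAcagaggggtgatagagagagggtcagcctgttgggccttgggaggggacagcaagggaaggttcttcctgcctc
C1qc promoter: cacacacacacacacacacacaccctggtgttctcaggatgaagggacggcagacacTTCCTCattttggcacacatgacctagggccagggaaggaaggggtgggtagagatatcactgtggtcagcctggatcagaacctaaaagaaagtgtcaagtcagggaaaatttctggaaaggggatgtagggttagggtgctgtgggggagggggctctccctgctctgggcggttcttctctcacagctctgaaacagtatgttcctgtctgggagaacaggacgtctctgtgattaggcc
Each of these windows held 1 match to GAGGAA, and 28.3% of 32851 mouse promoter windows held at least 1. Neither held the TATA box letters TATAAA (13.6% of windows). Both motifs were searched on both strands, and with no TATAAA present there is no overlap between them. Of the other members found in the promoter table, the Cfp window held 2 matches to GAGGAA and those of C3, C3ar1 and C5ar1 held 0. A match is a description of letters and was not tested as a binding site.

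The C1q chains were most abundant in microglia-like cells, then in border-associated macrophage-like cells, then in monocyte or macrophage-like cells, in both libraries and for all 3 genes. C1qb, the B chain, stood at 5929 CPM in microglia-like cells of the cKO-labelled library and 5083 CPM in those of the flox-labelled library. In border-associated macrophage-like cells it had 4951 CPM in the cKO-labelled library and 3987 CPM in the flox-labelled library, and in monocyte or macrophage-like cells 3351 CPM and 2981 CPM. C1qc, the C chain, had 7510.0 CPM in the cKO-labelled library and 7143 CPM in the flox-labelled library in microglia-like cells, 5589.6 and 5286 CPM in border-associated macrophage-like cells, and 2636 and 2642 CPM in monocyte or macrophage-like cells. The intervals of these 3 types did not overlap within a library. The next compared type was neutrophil-like, at 394 CPM of C1qb in the cKO-labelled library and 428 CPM in the flox-labelled library, and among the types below it most neighbours overlapped.

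C1qa, the A chain, had the same order of the 3 myeloid types but stood far lower in the cKO-labelled library. In microglia-like cells it had 416 CPM (8907 UMIs) in the cKO-labelled library against 2521 CPM (59223 UMIs) in the flox-labelled library, a log2 ratio of -2.60 (-2.63 to -2.57). In monocyte or macrophage-like cells it had 128 CPM against 863 CPM, a log2 ratio of -2.75 (-2.82 to -2.69). In border-associated macrophage-like cells it had 288 CPM against 1849 CPM, a log2 ratio of -2.68 (-2.78 to -2.59). The log2 ratio was below 0 in all 10 compared types, from -2.94 in neutrophil-like cells (7 UMIs in the cKO-labelled library and 33 in the flox-labelled library) to -1.14 in mural cell-like cells (9 and 13 UMIs), and its interval lay below 0 in 8 of them. The 12 microglia markers summed to 2256 CPM in monocyte or macrophage-like cells of the cKO-labelled library and 2555 CPM in those of the flox-labelled library, and their part in the C1q levels of these cells was not tested.

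**Figure D1:**
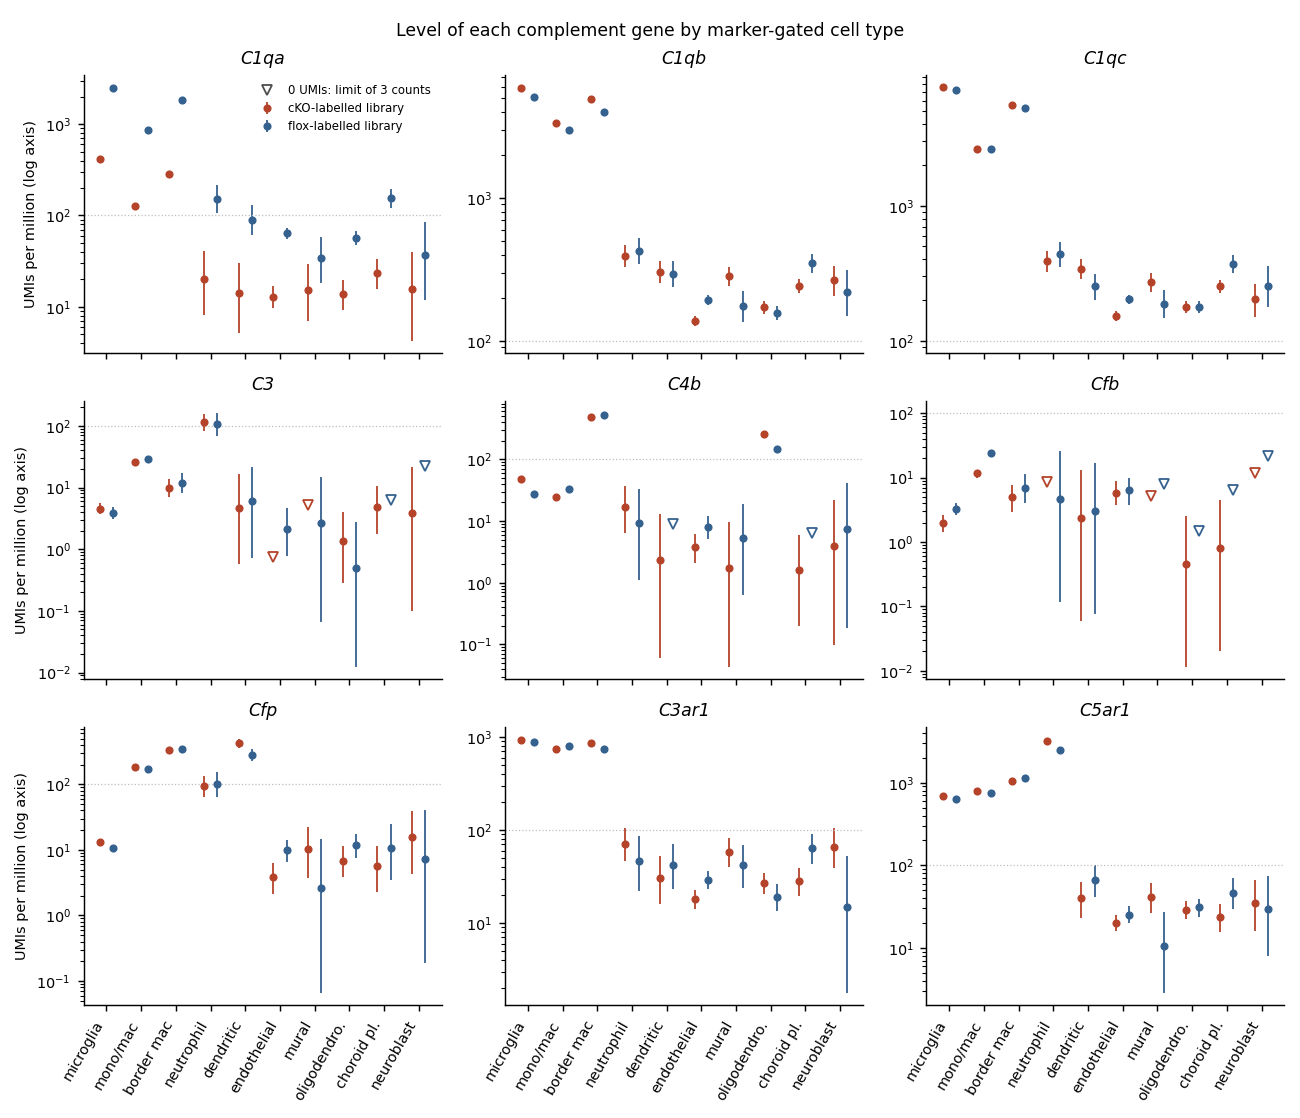
Level of each of the 9 genes in the 10 compared cell types, in CPM on a log axis that differs between panels, with the cKO-labelled library left of the flox-labelled library. Bars are exact Poisson 95% intervals, open triangles mark the level that 3 counts would give where no UMI was found, and the dotted line marks 100 CPM; the points of C1qa are farthest apart, at 416 against 2521 CPM in microglia-like cells.

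C1qb and C1qc did not share the low level of C1qa. The log2 ratio of cKO-labelled over flox-labelled C1qb was 0.22 in microglia-like, 0.17 in monocyte or macrophage-like and 0.31 in border-associated macrophage-like cells. That of C1qc was 0.07 in microglia-like cells, 0.00 (-0.02 to 0.02) in monocyte or macrophage-like cells and 0.08 in border-associated macrophage-like cells. Over the 10 compared types C1qb ranged from -0.52 to 0.69 and C1qc from -0.56 to 0.52, with ratios on both sides of 0. Both ends of these ranges lay in choroid plexus epithelial cell-like and mural cell-like cells, where C1q is near the background level described below.

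A size rule served to name differences: at least 2-fold, with an interval that leaves out equal levels, and at least 30 UMIs and 100 CPM in the library where the feature is higher. Of the 90 pairs of a member and a cell type, 38 were abundant enough to pass it. C1qa was lower by this rule in 5 types, and no member was higher in any compared type. The share of all features tested that were lower by the same rule was 3.73% in microglia-like cells, 3.27% in monocyte or macrophage-like, 3.84% in border-associated macrophage-like, 3.85% in neutrophil-like and 4.52% in choroid plexus epithelial cell-like cells, the 5 types with a C1qa call. Features higher by the rule made up 0.229%, 0.0564%, 0.81%, 2.64% and 0.645% of those tested in the same 5 types. In the other types, where no member passed, the shares lower and higher were 3.9% and 1.63% in dendritic cell-like, 4.9% and 0.58% in endothelial cell-like, 4.12% and 2.01% in mural cell-like, 3.4% and 0.195% in oligodendrocyte-like and 2.55% and 5.1% in neuroblast-like cells. Over all cells together 3.82% were lower and 0.221% higher, and C1qa had rank 4 from the lowest of 1808 features there. The members' median log2 ratio was 0.08 over the 5 tested in microglia-like cells, beside 0.05 over all 1744 features, and 0.03 over the 6 tested in monocyte or macrophage-like cells, beside 0.06 over all 1772 features. The members' median was near that of all features in these 2 types, where C1qa stood at the low edge: its ratio had rank 5 from the lowest of 1744 features in microglia-like cells and rank 5 of 1772 in monocyte or macrophage-like cells. In 4 of the types where only 2 or 3 members were tested the members' median lay farther from that of all features: it was 0.43 beside 0.00 in dendritic cell-like, -0.45 beside 0.00 in endothelial cell-like, 0.60 beside 0.03 in mural cell-like and -0.56 beside 0.09 in choroid plexus epithelial cell-like cells.

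Among the 5 types with under 50 cells in a library, 3 held a member past the size rule, and these are named after their values were seen. C1qa was lower in fibroblast-like and ependymal cell-like cells, C3ar1 lower in fibroblast-like cells (51.7 CPM in the cKO-labelled library against 193 CPM in the flox-labelled library) and C5ar1 lower in ependymal cell-like cells (73.0 CPM against 176 CPM). Of all features, 5.59% were lower and 4.76% higher in fibroblast-like cells, and 4.68% and 3.59% in ependymal cell-like cells. In fibroblast-like cells Tyrobp, a myeloid adaptor gene, stood at 182 CPM against 308 CPM, the 12 microglia markers summed to 5625 CPM (0 at 0) against 5917 CPM (2 at 0), and the 12 monocyte or macrophage markers to 2937 CPM (5 at 0) against 2635 CPM (6 at 0). The monocyte or macrophage markers summed to 530.3 CPM (6 at 0) against 3124 CPM (2 at 0) in ependymal cell-like cells, and the microglia markers to 3328 CPM (3 at 0) against 3854 CPM (1 at 0). C1qb was higher in astrocyte-like cells (421 CPM against 119 CPM), as was C1qc (333 CPM against 159 CPM), where 5.16% of features were lower and 5.33% higher. Tyrobp (225 CPM against 75.0 CPM), the protease gene Ctss (587 CPM against 141 CPM) and the sum of the 12 microglia markers (1901 CPM with 2 at 0, against 1218 CPM with 1 at 0) were higher there as well. The part of these markers in the member values was not tested.

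**Figure D2:**
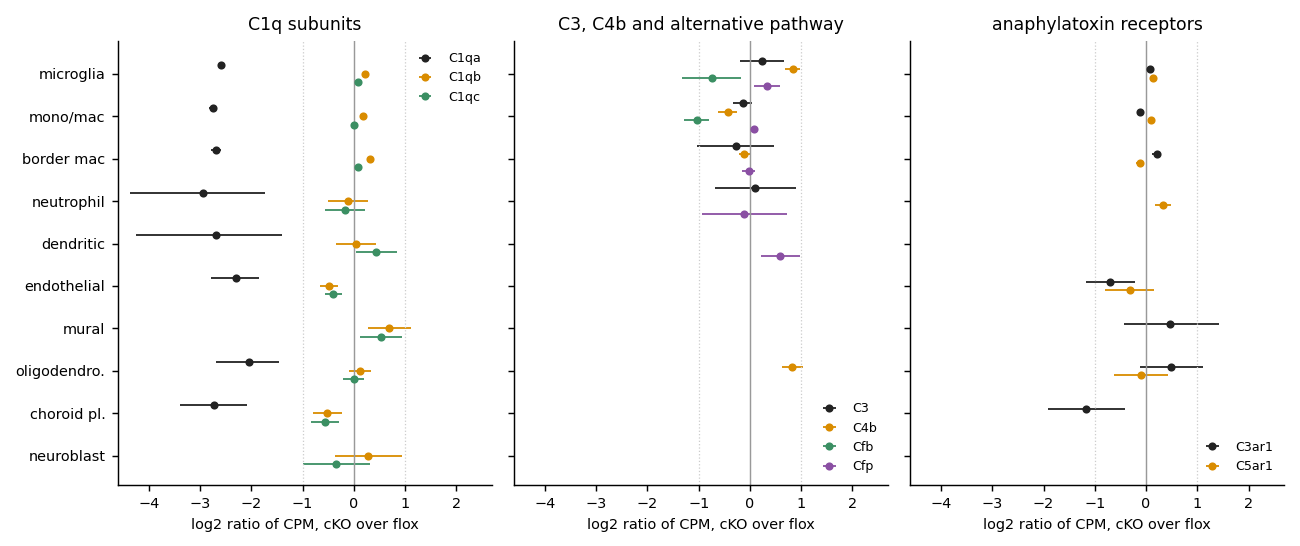
Log2 ratio of CPM, cKO-labelled over flox-labelled library, for the 9 genes in the 10 compared cell types, with exact conditional 95% intervals (counting error only). A pair is drawn where the higher library had at least 30 UMIs, and dotted lines mark 2-fold differences; C1qa lies below -2 wherever it is drawn, and C1qb and C1qc lie around 0.

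The make-up of the C1q transcripts shows the same split within each library. These are shares of UMIs not divided by length, for longest transcripts of 1040 (C1qa), 1088 (C1qb) and 1203 nt (C1qc). C1qa made up 3.00% of the C1q UMIs of microglia-like cells in the cKO-labelled library and 17.1% in the flox-labelled library. In monocyte or macrophage-like cells it made up 2.09% and 13.3%. Over the 10 compared types it ran from 2.09% to 4.51% in the cKO-labelled library and from 7.14% to 17.6% in the flox-labelled library. These ranges did not overlap, but intervals did where counts were few. The low end in the flox-labelled library was neuroblast-like, on 5 C1qa UMIs (2.36% to 15.9%). The high end in the cKO-labelled library was choroid plexus epithelial cell-like (3.04% to 6.41%). The C1q values of both types are read as background below. The C1qc count per C1qb count also depended on the type. It was 1.27 in the cKO-labelled library and 1.41 in the flox-labelled library in microglia-like cells, and 0.787 and 0.886 in monocyte or macrophage-like cells. Microglia-like cells therefore carried more C1qc than C1qb UMIs in both libraries, and monocyte or macrophage-like cells fewer.

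**Figure D3:**
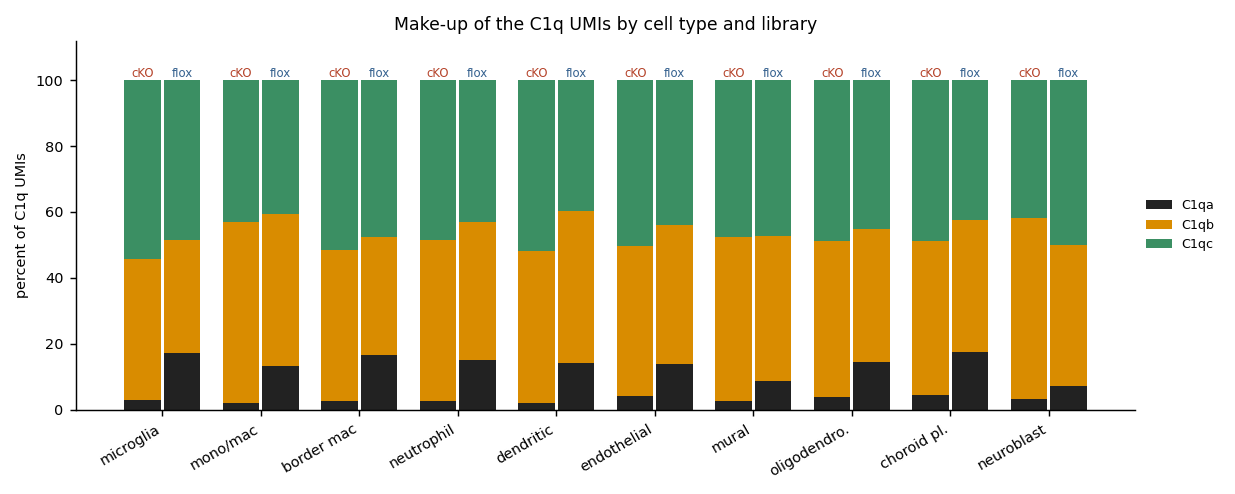
Percent of the C1q UMIs that came from C1qa, C1qb and C1qc in each compared cell type, cKO-labelled library left of flox-labelled library; no error bars are drawn because the shares of a bar sum to 100. The C1qa part is 3.00% against 17.1% in microglia-like cells and is smaller in the cKO-labelled library in every type shown.

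C1q UMIs in the non-myeloid types were at the level of other myeloid genes there. Over the 5 non-immune types compared, C1qb stood at 2.32% to 4.77% of its microglia-like level in the cKO-labelled library and 3.10% to 6.86% in the flox-labelled library. Tyrobp, a myeloid adaptor gene that these types should lack, stood at 3.66% to 8.59% and 4.18% to 7.44%. The C1q values of these types, the choroid plexus epithelial cell-like C1qa call included, are therefore read as background and not as expression. Beside the neutrophil-like C1qa call, C1qb stood in these cells at 6.65% of its microglia-like level in the cKO-labelled library and 8.41% in the flox-labelled library. Cx3cr1, a microglial chemokine receptor gene, stood at 2.99% and 3.12%, and the part of free RNA in these values was not tested.

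C1qa differed from its neighbours in the base composition of its 3′ end, and features of the highest GC content were more often lower. The last 500 nt of the longest transcript held 58.0% GC for C1qa, 53.6% for C1qb and 52.8% for C1qc, from 50.4% to 53.2% for C3, C4b, Cfb and Cfp, 43.8% for C5ar1 and 36.4% for C3ar1. When the features tested in microglia-like cells were put in 10 bins of equal size by this GC content, 22.9% of the 179 features of the highest bin (53.4% to 64.0% GC) were lower by the size rule, and at most 4.07% in each of the other bins. The shares in monocyte or macrophage-like cells were 22.4% of 183 features in the highest bin and at most 3.45% in the others. C1qa and C1qb were both in that highest bin. The median log2 ratio of that bin was -0.12 in microglia-like cells and its 5th percentile was -2.14. The part of GC content in the C1qa ratio was not tested.

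**Figure D4:**
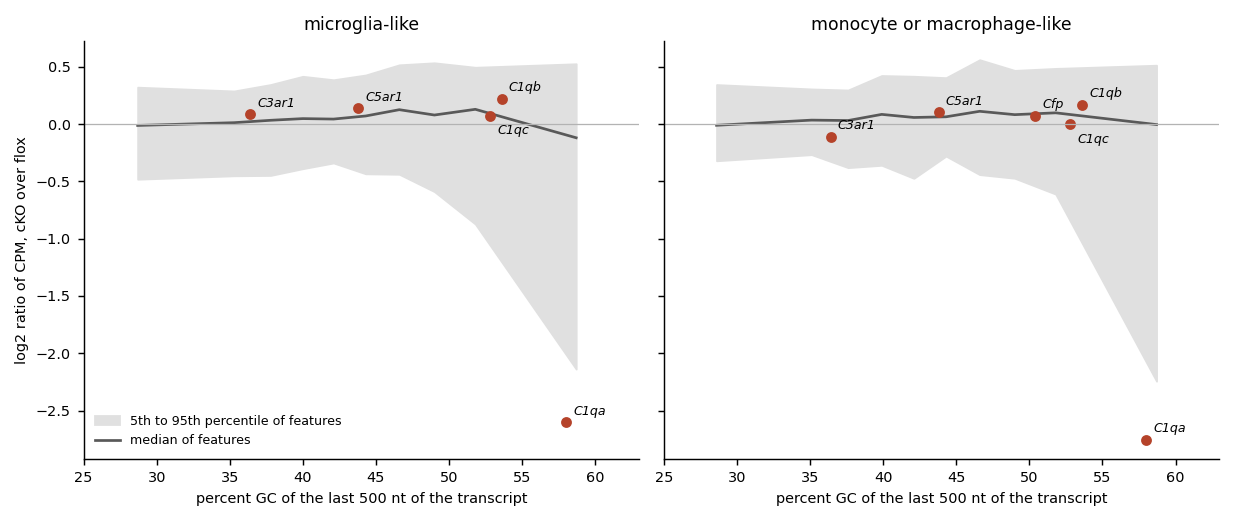
Log2 ratio of CPM, cKO-labelled over flox-labelled library, against percent GC of the last 500 nt of the longest transcript, in microglia-like and in monocyte or macrophage-like cells. The line joins the medians of 10 bins of features, the band spans their 5th to 95th percentiles, and the points are the members tested there; the band reaches down to -2.14 in the highest bin of microglia-like cells, and C1qa lies below it at -2.60.

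Shares of cells with a UMI were compared after thinning every cell to 1000 UMIs, which leaves out shallower cells (64 microglia-like cells of the cKO-labelled library and 81 of the flox-labelled library). C1qa was found in 34.0% (31.6 to 36.4) of microglia-like cells of the cKO-labelled library and in 87.3% (85.9 to 88.6) of those of the flox-labelled library. Without thinning the shares were 88.4% and 97.6%. C1qb was found in 99.1% and 98.4% of microglia-like cells after thinning. In endothelial cell-like cells, which should lack these genes, the thinned share was 2.16% in the cKO-labelled library and 6.46% in the flox-labelled library for C1qa, and 15.2% and 18.4% for C1qb. The median depth before thinning was 13734 and 8943 UMIs in these microglia-like cells and 7263 and 4353 UMIs in these endothelial cell-like cells.

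C4b, the classical pathway component cleaved by the C1 proteases, had a different home from C1q. Among the compared types it was highest in border-associated macrophage-like cells, gated by markers of the resident macrophages of meninges and vessels. It had 492 CPM there in the cKO-labelled library and 530.3 CPM in the flox-labelled library. The log2 ratio was -0.11 (-0.21 to 0.00), and it turned to 0.22 when types were taken from Leiden clusters. Oligodendrocyte-like cells came next, with 261 CPM (572 UMIs) in the cKO-labelled library against 148 CPM (302 UMIs) in the flox-labelled library, a log2 ratio of 0.82 (0.62 to 1.03). In cells of at most 10% mitochondrial UMIs this ratio was 1.03 (385 and 179 UMIs) and passed the size rule. The share of all features past the rule in those cells is not given here. In the setting reported, the intervals of border-associated macrophage-like and oligodendrocyte-like cells overlapped neither each other nor those of any other compared type. Border-associated macrophage-like cells held 39.6% of all C4b UMIs in the cKO-labelled library and 37.7% in the flox-labelled library, from 299 and 249 cells. Beside the C4b values of oligodendrocyte-like cells, the summed level of the 8 border-associated macrophage markers was 78.5 CPM in the cKO-labelled library (none at 0) and 66.1 CPM in the flox-labelled library (1 at 0), and their part in the result was not tested. In types with under 50 cells in a library, ependymal cell-like cells had 511 CPM against 426 CPM and astrocyte-like cells 205 CPM against 177 CPM.

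In microglia-like and monocyte or macrophage-like cells C4b was low and its ratios had opposite signs. Microglia-like cells had 48.8 CPM (1044 UMIs) in the cKO-labelled library against 27.3 CPM (642 UMIs) in the flox-labelled library, a log2 ratio of 0.84 (0.69 to 0.98). Monocyte or macrophage-like cells had 24.3 CPM (411 UMIs) against 32.8 CPM (570 UMIs), a log2 ratio of -0.43 (-0.62 to -0.24). With a stricter margin between types this last ratio was -0.07, and that of microglia-like cells was 0.86. C4b was thus higher in microglia-like than in monocyte or macrophage-like cells of the cKO-labelled library, 2.01-fold, and lower in the flox-labelled library, where the ratio was 0.834. Neither ratio between libraries reached 2-fold, and no level reached 100 CPM. The summed level of the 8 border-associated macrophage markers, none of them at 0, was 210.2 CPM in microglia-like cells of the cKO-labelled library and 138 CPM in those of the flox-labelled library, and 886 and 864 CPM in monocyte or macrophage-like cells, and their part in the C4b values was not tested.

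C3, the central component, was sparse in every compared type. Among these it was highest in neutrophil-like cells, at 114 CPM (40 UMIs, interval 81.6 to 156) in the cKO-labelled library and 107 CPM (23 UMIs, 67.8 to 160.4) in the flox-labelled library. Monocyte or macrophage-like cells had 25.9 CPM (438 UMIs) and 28.6 CPM (498 UMIs), a log2 ratio of -0.14 (-0.33 to 0.04), and held 49.7% of all C3 UMIs in the cKO-labelled library and 53.2% in the flox-labelled library. Microglia-like cells had 4.53 CPM and 3.87 CPM, so that monocyte or macrophage-like cells exceeded them 5.72-fold in the cKO-labelled library and 7.39-fold in the flox-labelled library. In endothelial cell-like cells 0 UMIs were found in the cKO-labelled library, for which 3 counts would give 0.759 CPM, against 6 UMIs (2.10 CPM) in the flox-labelled library. Ependymal cell-like cells, of which there were 28 and 36, had 229 CPM (47 UMIs) and 269 CPM (55 UMIs). No compared type showed a C3 difference that passed the size rule.

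Cfb, the protease-bearing component of the alternative pathway, stayed under 100 CPM in every type and could not pass the rule. Monocyte or macrophage-like cells were its highest type, with 11.6 CPM (196 UMIs) in the cKO-labelled library against 23.9 CPM (415 UMIs) in the flox-labelled library, a log2 ratio of -1.04 (-1.29 to -0.79). They held 52.3% of the Cfb UMIs in the cKO-labelled library and 62.3% in the flox-labelled library. Microglia-like cells had 1.96 CPM (42 UMIs) against 3.28 CPM (77 UMIs), a log2 ratio of -0.74 (-1.32 to -0.18). Over all cells of these 2 types Cfb was thus lower in the cKO-labelled library, with intervals that left out equal levels. No other compared type had such an interval.

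Cfp, which encodes properdin, was a gene of dendritic cell-like cells and macrophages rather than of microglia. Dendritic cell-like cells had 422 CPM (181 UMIs, 363 to 488) in the cKO-labelled library against 279.8 CPM (93 UMIs, 226 to 343) in the flox-labelled library, a log2 ratio of 0.59 (0.23 to 0.97) that was 0.15 when types were taken from Leiden clusters and 0.14 with a stricter margin between types. Border-associated macrophage-like cells had 339 CPM against 344 CPM, and monocyte or macrophage-like cells 182 CPM against 173 CPM, a log2 ratio of 0.07 (0.00 to 0.15). Dendritic cell-like cells therefore led in the cKO-labelled library, and in the flox-labelled library their interval overlapped that of border-associated macrophage-like cells. Neutrophil-like cells had 94.2 CPM in the cKO-labelled library and 102 CPM in the flox-labelled library. Microglia-like cells had 13.2 CPM and 10.5 CPM, and the monocyte or macrophage-like level exceeded theirs 13.8-fold in the cKO-labelled library and 16.5-fold in the flox-labelled library. After thinning, Cfp was found in 32.5% (22.6 to 43.7) of dendritic cell-like cells of the cKO-labelled library and 14.7% (7.56 to 24.7) of those of the flox-labelled library, beside 0 of 462 (exact upper bound 0.795%) and 0.978% of endothelial cell-like cells. The median depth of these dendritic cell-like cells was 4766 and 3951 UMIs.

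C3ar1, the receptor of C3a, was shared almost evenly by the microglia and macrophage types. Microglia-like cells had 932 CPM in the cKO-labelled library and 879 CPM in the flox-labelled library, a log2 ratio of 0.08 (0.06 to 0.11). Border-associated macrophage-like cells had 853 CPM and 739.5 CPM, a log2 ratio of 0.21 (0.12 to 0.29), and monocyte or macrophage-like cells had 746 CPM and 805 CPM, a log2 ratio of -0.11 (-0.15 to -0.08). Microglia-like cells led in both libraries, and the order of the other 2 types was reversed between them. The level in microglia-like cells was 1.25-fold that in monocyte or macrophage-like cells in the cKO-labelled library and 1.09-fold in the flox-labelled library. In the 5 non-immune types C3ar1 stood at 1.93% to 7.10% of its microglia-like level in the cKO-labelled library and 1.67% to 7.21% in the flox-labelled library, at or below the highest values of Tyrobp in the same types.

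C5ar1, the receptor of C5a and a classical chemoattractant receptor, was highest in neutrophil-like cells, at 3175 CPM (1112 UMIs) in the cKO-labelled library and 2519.6 CPM (542 UMIs) in the flox-labelled library, a log2 ratio of 0.33 (0.18 to 0.48). In neutrophil-like cells of at least 2000 UMIs it was 1.20 and passed the size rule, on 153 UMIs against 37. This limit left out most neutrophil-like cells, whose median depth was 1294 UMIs in the cKO-labelled library and 1069 UMIs in the flox-labelled library. The share of all features past the rule in the cells that remained is not given here. Border-associated macrophage-like cells followed with 1053 CPM and 1149 CPM, a log2 ratio of -0.13 (-0.20 to -0.05) that turned to 0.06 with Leiden clusters. Monocyte or macrophage-like cells had 797 CPM and 741 CPM, a log2 ratio of 0.10 (0.07 to 0.14), and microglia-like cells had 699 CPM and 634 CPM, a log2 ratio of 0.14 (0.11 to 0.17). These 4 types stood in the same order in both libraries, with no overlap of intervals between neighbours. After thinning, C5ar1 was found in 90.0% (85.0 to 93.8) of neutrophil-like cells of the cKO-labelled library and in 85.2% (77.1 to 91.3) of those of the flox-labelled library, beside 2.60% and 1.76% of endothelial cell-like cells. Thinning left out 51 and 67 neutrophil-like cells, and the median depth of those kept was 1439 and 1213.5 UMIs. The related second C5a receptor gene C5ar2 was also highest in neutrophil-like cells, at 137 CPM (48 UMIs) in the cKO-labelled library and 116 CPM (25 UMIs) in the flox-labelled library.

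Within microglia-like and monocyte or macrophage-like cells, the members were set against 2 marker scores, an interferon score and a cycling score. These are ranges of a score over both libraries together and not cell types, and they were chosen with the data in view. Cells of different ranges were not matched for depth. Along the microglial axis, the most lipid-associated tertile (696 cells of the cKO-labelled library and 634 of the flox-labelled library) was set over the most resting tertile (384 and 946 cells). C4b was lower in the lipid-associated tertile, at 17.0 CPM against 103 CPM in the cKO-labelled library, a log2 ratio of -2.61, and at 8.94 CPM against 51.5 CPM in the flox-labelled library, a log2 ratio of -2.52. C3ar1 was higher in the lipid-associated tertile, by 0.73 on the log2 scale in the cKO-labelled library and 0.88 in the flox-labelled library, and C5ar1 by 0.40 and 0.52. C1qb was lower by a log2 ratio of -0.27 and -0.29, and C1qc (-0.11 and 0.00) and C1qa (0.00 and 0.13) were nearly level. Cfb was lower too, by a log2 ratio of -2.35 in the cKO-labelled library (14 UMIs against 17) and -4.22 in the flox-labelled library (3 UMIs against 35). C3 was at 0.05 and -0.92, and Cfp at 0.01 and 0.66. The receptors thus changed in the opposite direction to C4b and Cfb along this axis in each library, while the C1q genes moved little.

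Along the macrophage axis, the most lipid-laden tertile (622 cells of the cKO-labelled library and 739 of the flox-labelled library) was set over the most monocyte-like tertile (631 and 730 cells). All 3 C1q genes were higher in the lipid-laden tertile: C1qc by a log2 ratio of 1.13 in the cKO-labelled library and 0.83 in the flox-labelled library, C1qb by 0.74 and 0.53, and C1qa by 0.89 and 0.61. C3 was lower, at 12.5 CPM against 49.9 CPM in the cKO-labelled library and 16.6 CPM against 57.5 CPM in the flox-labelled library, log2 ratios of -2.0 and -1.79. Cfb (-2.59 and -2.13), C4b (-1.40 and -1.14) and Cfp (-0.71 and -0.91) were lower as well. The receptors parted, with C3ar1 higher (0.66 and 0.48) and C5ar1 lower (-0.54 and -0.28) in the lipid-laden tertile. The C3, C4b, Cfb and Cfp levels were thus lower in the tertile where the C1q levels were higher, and each direction was the same in both libraries.

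**Figure D5:**
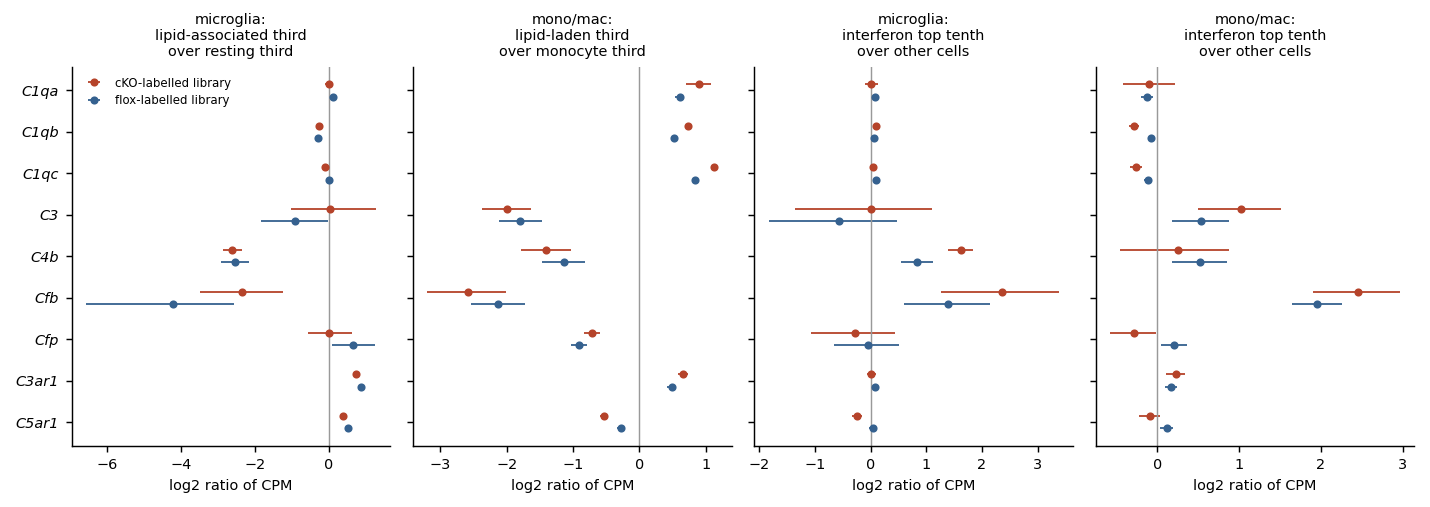
Log2 ratio of CPM of each gene between ranges of marker scores within microglia and within monocytes or macrophages (mono/mac), cKO-labelled points above flox-labelled points, with 95% counting intervals. The ranges are tertiles of a marker score, or the 10% of cells with the highest interferon score against the other cells; C4b is at -2.61 and -2.52 in lipid-associated microglia of the cKO-labelled and flox-labelled library, and Cfb at 2.45 and 1.95 in interferon-high macrophages.

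In the 10% of cells with the highest interferon score, Cfb was higher than in the other cells of the same type. In monocyte or macrophage-like cells it had 53.2 CPM against 9.71 CPM in the cKO-labelled library, a log2 ratio of 2.45 (lower bound 1.91), and 69.0 CPM against 17.8 CPM in the flox-labelled library, a log2 ratio of 1.95 (lower bound 1.65). C3 was also higher there, by 1.02 in the cKO-labelled library and 0.53 in the flox-labelled library. In microglia-like cells C4b was higher in the interferon-high cells, at 130.4 CPM against 42.4 CPM in the cKO-labelled library and 44.5 CPM against 24.9 CPM in the flox-labelled library. The cut lay on the pooled cells. The interferon-high range of monocyte or macrophage-like cells thus held 99 cells of the cKO-labelled library and 310 of the flox-labelled library. In the 10% of cells with the highest cycling score, C4b was higher than in the other monocyte or macrophage-like cells. Its log2 ratio was 0.73 in the cKO-labelled and 0.72 in the flox-labelled library, and -0.26 and -0.14 in microglia-like cells. Cfp was at -0.86 and -0.62 in microglia-like cells, and at 0.24 and 0.14 in monocyte or macrophage-like cells. Values of the other members along this score are not given here.

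Differences between libraries were also present within single ranges of these scores. The C1qa log2 ratio of cKO-labelled over flox-labelled cells was -2.61 in the lipid-associated, -2.61 in the middle and -2.49 in the resting tertile of microglia-like cells, and -2.66, -2.78 and -2.95 from the lipid-laden to the monocyte tertile of monocyte or macrophage-like cells. For C4b in microglia-like cells it was 0.92, 1.46 and 1.01 in the same order of tertiles, each larger than the 0.84 of all microglia-like cells, where the cKO-labelled library had fewer cells of the C4b-rich resting tertile. C4b in monocyte or macrophage-like cells was at -0.57, -0.41 and -0.31, the last with an interval that reached 0.02. Cfb was at -1.18, -1.39 and -0.71 there, and in the interferon-high cells at -0.38 (-0.93 to 0.14). In microglia-like cells the Cfb ratio was not of 1 sign: it was 1.79 (-0.05 to 4.23) in the lipid-associated tertile on 14 UMIs against 3, -1.35 (-2.47 to -0.36) in the middle tertile and -0.08 (-1.01 to 0.79) in the resting tertile.

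Of 48 other complement genes listed, 47 had a feature row, 19 reached 100 CPM in some type and library, and 8 had 0 UMIs in all cells of both libraries. None of them passed the size rule in microglia-like or monocyte or macrophage-like cells, where 4 and 5 were tested. Elsewhere, in types of under 100 cells and named after their values were seen, Clu was lower in dendritic cell-like cells (46.7 CPM in the cKO-labelled library against 156 CPM in the flox-labelled library), where 3.9% of features were lower. In mural cell-like cells the C1q-binding chaperone gene Calr was higher (861 CPM against 414 CPM), beside 4.12% of features lower and 2.01% higher. The highest type was the same in both libraries for 14 of the 19 genes.

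Several partners and inhibitors of the pathway were highest in mural cell-like cells, the contractile cells of vessels. C1s1, the C1s protease gene, peaked in mural cell-like cells at 122 CPM in the cKO-labelled library and 175 CPM in the flox-labelled library, as did Serping1, the C1 inhibitor gene, at 414 CPM and 558 CPM, and Vtn, which encodes the terminal pathway inhibitor vitronectin, at 2317 CPM and 2764 CPM. C2, the partner of C4, peaked in border-associated macrophage-like cells at 70.0 CPM and 103 CPM. So did the lectin pathway gene Fcna at 306 CPM and 281 CPM, and the phagocytic receptor gene Vsig4 at 155 CPM and 154 CPM. Border-associated macrophage-like cells were thus the highest type for C2, Fcna and Vsig4 in both libraries, and among the 10 compared types also for C4b.

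Among membrane regulators, Cd59a peaked in choroid plexus epithelial cell-like cells at 397 CPM in the cKO-labelled library and 384 CPM in the flox-labelled library, a level uncertain for its likeness to Cd59b, and Cd55 in ependymal cell-like cells at 146 CPM and 118 CPM. Clu, which encodes the fluid-phase inhibitor clusterin, peaked in ependymal cell-like cells at 2880.4 CPM and 3398 CPM. Cd93 peaked in endothelial cell-like cells at 1201 CPM and 1194 CPM, and Calr in microglia-like cells at 2603 CPM and 2162 CPM. Of the complement receptor integrins, Itgax peaked in dendritic cell-like cells at 511 CPM and 566 CPM, and Itgb2 in neutrophil-like cells at 857 CPM and 995 CPM. Itgam, the alpha chain of complement receptor 3, peaked in neutrophil-like cells of the cKO-labelled library at 1031 CPM and in microglia-like cells of the flox-labelled library at 1253 CPM. Colec12 (217 CPM in mural cell-like and 492 CPM in fibroblast-like cells), Cr1l (203 CPM in endothelial cell-like and 212 CPM in T or NK cell-like cells) and C1qbp (147 CPM in fibroblast-like and 137 CPM in oligodendrocyte-like cells) likewise had different highest types in the cKO-labelled and the flox-labelled library. The fibroblast-like and T or NK cell-like types had under 50 cells in the flox-labelled library, 25 and 48.

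The genes most like each member were sought by Pearson's r of log2(CPM + 1) over the 10 compared types in both libraries (20 points, which share libraries and depth), among 5306 genes with 100 CPM somewhere. The closest gene to C1qb was C1qc (r = 0.994), followed by the lysosomal membrane gene Cd68 (0.981) and C3ar1 (0.979). Next to C1qc after C1qb were the phagocyte receptor gene Trem2 (0.971) and Fcrls (0.971), the latter a microglial marker used to place the cells. The closest genes to C1qa were the lysosomal genes Ctsd (0.95) and Hexa (0.937) and the ferritin gene Ftl1 (0.917). Both libraries were pooled here, and the part of the C1qa ratio between libraries in these values was not tested. C3ar1 was followed after C1qb by Lgmn (0.973) and the scavenger receptor gene Msr1 (0.969). C5ar1 was closest to the inflammatory genes Cxcl2 (0.974) and Tnf (0.974), and to Pgd (0.966). C3 was closest to the innate receptor genes Sirpb1c (0.949), Cd300lb (0.921) and Clec4e (0.919). Cfp (Krt80, 0.916) and C4b (Scarb2, 0.841) had less close neighbours, and Cfb was too low to be searched.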

How the data were processed

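The count tables hold whole UMI counts per gene and barcode as deposited. Per the submitters' processing notes, CASAVA 1.8, STARsolo and Seurat were used with the mouse build mm10, but neither their settings nor the filters applied before deposit are stated. The smallest deposited barcode held 500 UMIs in each library.

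From these counts, barcodes with at least 500 UMIs, 200 genes and at most 25% mitochondrial UMIs were kept, and called doublets were removed with Scrublet as run in scanpy 1.11.5 (1.99% of barcodes in the cKO-labelled library and 2.54% in the flox-labelled library). Each cell was placed in the type whose fixed markers scored highest, at a score of at least 0.15, with a margin of 0.05 over the next type and 3 markers detected. These thresholds were chosen after seeing how the gate and the clusters matched. Cells that met none (21.6% in the cKO-labelled library and 20.0% in the flox-labelled library) stayed out of the types. UMIs were summed per type and library and divided by the summed total (CPM). With 1 library per group no test or p-value was possible. Intervals at 95% were exact and cover counting error only, and a count of 0 was given the limit of 3 counts. Levels are not divided by transcript length, so genes are not ranked against each other. The members, the wider list, the markers and the alternatives were chosen with earlier results of these data known.

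The genes named are the 9 members, the wider-list genes past the size rule or at their highest type, and for each member the 3 genes with the most alike pattern, with a pseudocount of 1 CPM. Gene positions came from GENCODE annotation of the same build, and promoters from RefSeq, in which 6 of the 9 members were found. Some genes are not reported here. The size rule was tested on simulated counts. Alternatives were edgeR 4.0.16 TMM scaling, equal weight per cell, other cell filters, a stricter margin of 0.15, Leiden clusters (leidenalg 0.10.2, made without complement genes), subtraction of the median of like 3′ GC content, thinning to 2000 UMIs and, added after the data were seen, leaving out the 56 shared barcodes and splitting 2 types by scores. Python 3.11.15, numpy 2.4.6, scipy 1.17.1, pandas 2.3.3, matplotlib 3.10.9 and R 4.3.3 were used.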

Additional observations from a re-analysis of the deposited data

Results flagged for a closer look

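C4b was listed for a closer look because its ratio between libraries had opposite signs in related cell types. The log2 ratio of cKO-labelled over flox-labelled cells was 0.84 in microglia-like cells and -0.43 in monocyte or macrophage-like cells, a difference of 1.27. With a stricter margin between types the C4b ratios were 0.86 and -0.07. C3ar1 was listed for the same reason, with 0.08 in microglia-like cells and -0.11 in monocyte or macrophage-like cells, a difference of 0.19. With 1 library per group neither difference was tested.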

How the results depend on the processing

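No paired analysis was possible because each group has 1 library and the labels carry no replicate numbers. The log2 ratio of C1qa in microglia-like cells was -2.57 with edgeR TMM scaling, -2.54 with equal weight per cell and -2.48 after subtraction of the 3′ GC-bin median, against -2.60. The median of that bin was -0.12 and its 5th percentile -2.14, so the subtraction could move the ratio by only 0.12. It does not measure the part of GC content in the ratio, which was not tested. In monocyte or macrophage-like cells the C1qa ratio was -2.66 with Leiden clusters and -2.90 with the stricter gate, against -2.75. The C1qa level of microglia-like cells was 407 CPM in the cKO-labelled library with equal weight per cell, and 2554 CPM with Leiden clusters, 2493 CPM with doublets kept and 2363 CPM with equal weight in the flox-labelled library. For monocyte or macrophage-like cells the C1qa level was 164 CPM with Leiden clusters and 115 CPM with equal weight in the cKO-labelled library, and 1033 CPM and 766 CPM in the flox-labelled library. The share of microglia-like cells with a UMI of C1qa was 54.5% in the cKO-labelled library and 96.6% in the flox-labelled library after thinning to 2000 UMIs, and 88.4% and 97.6% without thinning. For monocyte or macrophage-like cells these C1qa shares were 18.0% and 57.8%, and 48.6% and 73.7%.

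Pairs of a member and a type lower by the size rule were 10 with doublets kept, against 5, and pairs that were higher, 0 in the setting reported, were 2 with at most 10% mitochondrial UMIs, 1 with at least 2000 UMIs and 2 with Leiden clusters. The share of all features past the rule in those settings and types is not given here, so these counts cannot be set against it. The pairs added with doublets kept were C1qa in endothelial cell-like, oligodendrocyte-like and neuroblast-like cells, and C1qb and C1qc in neuroblast-like cells. The higher pairs were C1qb and C1qc in mural cell-like clusters, and C1qb in mural cell-like and C4b in oligodendrocyte-like cells of at most 10% mitochondrial UMIs. Another higher pair was C5ar1 in neutrophil-like cells of at least 2000 UMIs, where the C1qa call was lost. C5ar1 stood there at 2559.6 CPM (153 UMIs) in the cKO-labelled library against 1117 CPM (37 UMIs) in the flox-labelled library. With the stricter gate the neutrophil-like C1qa call was not made either, at a log2 ratio of -3.82. In cells of at most 10% mitochondrial UMIs, C1qb took the place of C1qa among the lower genes of choroid plexus epithelial cell-like cells. It rested on few counts there, with 264 CPM (28 UMIs) in the cKO-labelled library against 894 CPM (40 UMIs) in the flox-labelled library. Without a minimum level, features past the size rule were 774 lower and 186 higher in microglia-like cells (65 and 4 with it), 655 and 187 in monocyte or macrophage-like cells (58 and 1), and 5791 and 1702 summed over the compared types (689 and 240). For the wider complement list they were 3 higher in microglia-like cells (0), and 13 lower and 7 higher in sum (2 and 1). More features could be called there by construction, and for the other shifts the cause was not tested.

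Some ratios of members changed sign. C4b in border-associated macrophage-like cells was 0.22 with Leiden clusters, 0.16 with the stricter gate and 0.18 with equal weight, against -0.11, and C5ar1 there was 0.06 with Leiden clusters and 0.10 with the stricter gate, against -0.13. Subtraction of the GC-bin median changed C1qc in microglia-like cells (-0.06, against 0.07), Cfp in monocyte or macrophage-like cells (-0.02, against 0.07, and -0.06 with the stricter gate) and C5ar1 over all cells (-0.04, against 0.04), and brought C1qc and C4b in border-associated macrophage-like cells to 0.00 within rounding. C4b was itself the median feature of its bin there, both at -0.108, so its value after subtraction was fixed in advance. C5ar1 in mural cell-like cells was -0.01 with Leiden clusters, against 1.97, C1qb in choroid plexus epithelial cell-like cells was 0.27 with equal weight, against -0.52, and C3ar1 in neuroblast-like cells was -0.98 with doublets kept, against 2.17. C4b in monocyte or macrophage-like cells kept its sign but stood at -0.07 with the stricter gate, against -0.43. Cfp in dendritic cell-like cells was 0.15 with Leiden clusters and 0.14 with the stricter gate, against 0.59. C4b in microglia-like cells ranged from 0.71 to 0.88 over the alternatives, and Cfb in monocyte or macrophage-like cells from -1.14 to -0.86. Depth limits C3 and Cfb outside monocyte or macrophage-like cells, where most types held fewer than 50 UMIs.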
